A study of Mus musculus with 16 samples.

Results

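To examine how the loss of 1 Arid1b copy changes gene expression in the adult cortex, Arid1b+/- mice (HT-Veh) were compared with wild-type mice (WT-Veh) that had not received any drug. The comparison holds 8 of the 16 samples of the series, chosen by genotype and treatment, with 4 mice in each group. All 8 were C57BL/6N males, and the tissue is given as prefrontal cortex, taken at postnatal day 120. From day 3 to day 21 after birth the dams drank 0.2% saccharin water without fluoxetine, so vehicle exposure was shared by both groups. HT-Veh mice carried 1 Arid1b allele edited with CRISPR/Cas9 at exon 5. By the study's methods this allele is a deletion that spans the whole of exon 5 with TT inserted in its place, and a schematic of the study draws it as a TT insertion at the start of the exon. The allele is present in every cell, so values from whole tissue mix all cell types of the cortex. In such tissue, fewer cells of a type and less RNA per cell cannot be told apart. WT and HT mice came from crosses of heterozygous males with wild-type females, and the sample titles do not tie mice to litters.

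Arid1b encodes a large DNA-binding subunit of the SWI/SNF (BAF) complex, which uses ATP to move nucleosomes and so opens promoters and enhancers. ARID1A and ARID1B occupy the same position in the complex, and a given complex holds 1 of them. Loss of 1 ARID1B copy in people is a cause of Coffin-Siris syndrome and is linked to intellectual disability and autism.

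The targeted exon is printed because the genotype is defined by it. Exon 5 lies at chr17:5242828-5243071 (GRCm38, plus strand) in the coding part of a 20-exon Arid1b transcript of 11325 bases, and it is shown whole in lower case.

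Arid1b exon 5: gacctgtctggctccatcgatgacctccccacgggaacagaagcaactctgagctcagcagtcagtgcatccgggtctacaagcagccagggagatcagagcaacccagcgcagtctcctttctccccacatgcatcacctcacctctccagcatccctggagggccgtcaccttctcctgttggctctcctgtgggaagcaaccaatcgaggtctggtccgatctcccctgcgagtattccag

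The exon is 244 bases long, which leaves a remainder of 1 on division by 3, so a transcript that lacks it and joins exon 4 to exon 6 leaves the reading frame. In the annotated sequence this join keeps 621 whole codons, adds 20 more and then meets a stop codon, against 2244 codons in the full reading frame. The join is shown with 30 bases of exon 4 followed by 63 bases of exon 6, with the stop in capitals.

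Exon 4 joined to exon 6: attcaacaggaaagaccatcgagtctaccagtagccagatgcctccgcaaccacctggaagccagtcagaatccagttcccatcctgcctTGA

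Values are normalized read counts, that is, estimated reads per gene divided by a normalization factor of the authors, and all differences are HT-Veh minus WT-Veh on log2(value + 1). Normalized totals ran from 93.3% to 104% of their mean, and the sequencing depth is unknown. Markers of cortical excitatory neurons, interneurons and glia were detected in all 8 samples. In 2 libraries, 1 from each group, markers of the olfactory bulb were also high. The mean level of 8 bulb markers on the log2 scale was 10.10 in WT-Veh replicate 1 and 8.44 in HT-Veh replicate 4, whereas the other 6 libraries ran from 5.24 to 5.73. Eomes, a transcription factor of bulb projection neurons, had 899 normalized reads in WT-Veh replicate 1 and 240.1 in HT-Veh replicate 4, against 1.75 to 14.8 elsewhere. Markers of migrating neuroblasts were raised in the same pair of libraries, at 8.54 and 7.79 against 6.44 to 7.08. The first principal component, with 38.4% of the variance, separated WT-Veh replicate 1 from the rest. The part of the bulb-rich libraries in the results was not tested, and values are also given without both bulb-rich libraries, which leaves 3 mice against 3.

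Arid1b itself had 1787, 2453, 2831 and 2401 normalized reads in WT-Veh replicates 1 to 4 and 2005, 1753, 1802 and 1619 in HT-Veh replicates 1 to 4. The groups overlapped only through WT-Veh replicate 1, which lay below HT-Veh replicates 1 and 3. The means were 2368 ± 432 (SD, n = 4) and 1795 ± 160 (SD, n = 4), so that HT-Veh held 75.8% of the WT-Veh level. The log2 difference was -0.38 (SE 0.13), which did not pass the threshold in the fit across all genes (limma adjusted p = 0.922) or in the two-sided exact permutation test (p = 0.0857, where 4 against 4 mice cannot go below 0.0286). Without WT-Veh replicate 1, the mouse that made the groups overlap, the difference was -0.51 (limma adjusted p = 0.0992). The exact permutation p was then 0.0286, the smallest that 3 against 4 mice allow. Removal of the overlapping mouse brings this p to its minimum, so no conclusion is drawn from it. Leaving out both bulb-rich libraries gave -0.47 (limma adjusted p = 0.0634, and an exact permutation p = 0.1, the smallest that 3 against 3 mice allow). Exon 5 makes up 244 of 11325 transcript bases, so reads of the edited allele outside this exon still count toward the gene, and the level does not by itself check the genotype.

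Of 28 BAF subunit genes tested, Arid1b included, 0 passed the threshold by limma. At unadjusted p under 0.05, 1 was higher (Smarcc1) and 1 lower (Arid1b itself). Over all 16832 genes tested, 4.88% had unadjusted p under 0.05, 2.63% with a positive difference and 2.26% with a negative difference. Smarcc1, which encodes a core scaffold of the complex, had 1586, 1714, 1834 and 1749 normalized reads in WT-Veh and 1919, 1890, 2144 and 2096 in HT-Veh (log2 difference 0.23, SE 0.07, adjusted p = 0.914). Its groups did not overlap. Arid1a, the alternative subunit at the position of ARID1B, averaged 4113 ± 421 in WT-Veh and 4503 ± 196 in HT-Veh (log2 difference 0.14, SE 0.08, adjusted p = 0.922), and its groups overlapped.

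Only 3 of 16832 genes passed the adjusted threshold, or 0.0178% of those tested: Ccdc3 was higher (0.00594% of genes called in that direction), and Rspo1 and Fam220a were lower in HT-Veh (0.0119%). Rspo1 encodes a secreted R-spondin, which strengthens Wnt signalling by protecting Wnt receptors from removal, and in the cortex it also marks neurons of layer 4 type. It had 248, 303, 306 and 279 normalized reads in WT-Veh and 106, 127, 107 and 130 in HT-Veh, so every HT-Veh mouse lay far below every WT-Veh mouse. The means were 284 ± 26.8 and 117 ± 12.4 (SD, n = 4), a log2 difference of -1.27 (SE 0.13, limma adjusted p = 0.0229). Without both bulb-rich libraries the log2 difference was -1.38 (adjusted p = 0.00656).

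Ccdc3 encodes a secreted coiled-coil protein studied mainly in fat and vessel walls. It had 424, 466, 409 and 425 normalized reads in WT-Veh and 837, 752, 752 and 671 in HT-Veh, with no overlap. Its mean rose from 431 ± 24.4 to 753 ± 67.8 (SD, n = 4), a log2 difference of 0.80 (SE 0.09, adjusted p = 0.0322), and without both bulb-rich libraries the log2 difference was 0.85 (adjusted p = 0.00656).

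The third call was 1 of 2 identifiers of Fam220a, a gene whose protein binds STAT3. The identifier ENSMUSG00000083012 (chr5:143548708-143564531) had 65.7, 41.7, 30.97 and 59.1 normalized reads in WT-Veh and 6.16, 2.98, 4.28 and 1.61 in HT-Veh (log2 difference -3.44, SE 0.40, adjusted p = 0.0322). These are low values without overlap. The identifier ENSMUSG00000118332, which covers the same locus, averaged 768 ± 57.4 in WT-Veh and 783 ± 52.8 in HT-Veh (log2 difference 0.03, SE 0.08, adjusted p = 0.969). The identifiers share reads: transcripts Fam220a-204 and Fam220a-208, 1 from each, have identical sequence, and 60.4% and 98.8% of their 31-base words occur in the other. Summed over both, Fam220a averaged 818 ± 71.9 and 787 ± 50.9 normalized reads, which is -0.05 on the log2 scale. The call for the low identifier is therefore uncertain as a change of the gene.

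**Figure D1:**
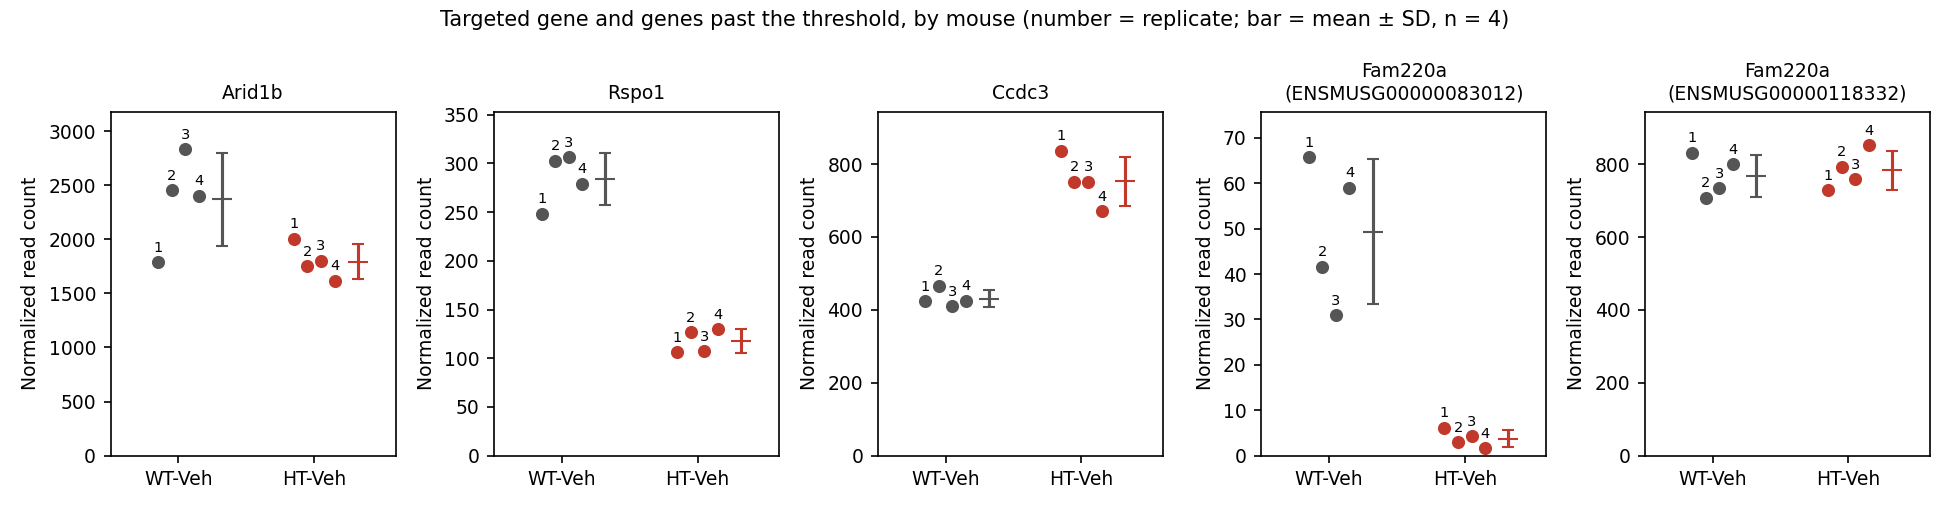
Normalized read counts (y axis, from 0) of Arid1b, Rspo1, Ccdc3 and both Fam220a identifiers in each WT-Veh (grey) and HT-Veh (red) mouse, with the replicate number above each point and the mean ± SD (n = 4) beside it. Rspo1 and Ccdc3 show no overlap, Arid1b overlaps through WT-Veh replicate 1, and the abundant Fam220a identifier has means of 768 and 783.

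Each of the 3 calls was lost in some of the fits that left out 1 mouse. Rspo1 and Ccdc3 each passed in 2 of the 8 fits with 1 mouse left out (without WT-Veh replicate 1 and without HT-Veh replicate 4), and their adjusted p reached 0.159 and 0.188 in the others. The Fam220a identifier passed in 0 of the 8 by limma, with adjusted p from 0.0551 to 0.216. Their differences were stable, from -1.33 to -1.22 for Rspo1 and from 0.75 to 0.85 for Ccdc3, and the largest unadjusted p among these fits was 1.24e-05 for Rspo1 and 3.31e-05 for Ccdc3. Without both bulb-rich libraries 12 of 16888 genes passed (0.0711%), 8 higher and 4 lower. The genes lower in HT-Veh were Rspo1, the Fam220a identifier, 1110008P14Rik and Slc15a4, a lysosomal transporter (log2 difference -0.66). The genes higher in HT-Veh were Ccdc3, Wfs1, Otof, Tmem181b-ps, Nos1, the neuronal nitric oxide synthase (log2 difference 0.61), Cpne6, a calcium-binding copine (0.37), Ccn3, a matricellular protein (0.49), and Trp53i11 (0.36).

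**Figure D2:**
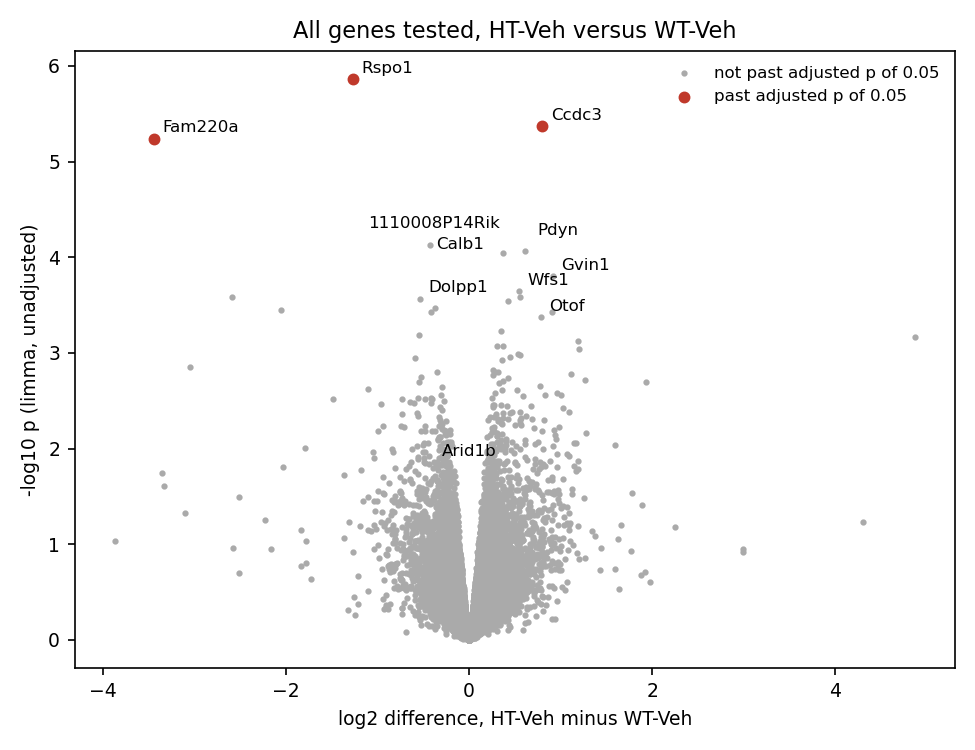
Log2 difference HT-Veh minus WT-Veh (x axis) against -log10 of the unadjusted limma p (y axis) for the 16832 genes tested, with genes past an adjusted p of 0.05 in red. The 3 called genes stand above the rest, whose smallest adjusted p was 0.256, and Arid1b lies within the cloud.

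Beyond the calls, the genes with the smallest p on the positive side included 3 of the 15 genes of the upper-layer list, in which 10 differences were positive and 5 negative. That list was chosen with earlier results of these data known, so the count is a description only. Calb1, the calcium buffer calbindin of upper-layer neurons and interneurons, had 3128, 3381, 3235 and 3223 normalized reads in WT-Veh and 3978, 4149, 4409 and 4221 in HT-Veh (log2 difference 0.37, SE 0.06, adjusted p = 0.256). Wfs1, which encodes the endoplasmic reticulum membrane protein wolframin, had 2511, 2711, 2506 and 2721 in WT-Veh and 3845, 4350, 3985 and 3123 in HT-Veh (log2 difference 0.54, SE 0.10, adjusted p = 0.398). HT-Veh replicate 4, a bulb-rich library, was the lowest of the HT-Veh mice for Wfs1. Otof, the calcium sensor otoferlin, averaged 861 ± 142 and 1483 ± 257 (log2 difference 0.78, SE 0.15, adjusted p = 0.419). All 3 had groups that did not overlap, as did 3.84% of all genes. In the fit of 3 against 3 mice, Wfs1 (log2 difference 0.62, adjusted p = 0.00656) and Otof (log2 difference 0.77, adjusted p = 0.0102) passed, and Calb1 did not (log2 difference 0.35, adjusted p = 0.0515). With the mean bulb marker level as a covariate over all 8 mice, where 20 genes passed (0.119%), Calb1 passed (log2 difference 0.37, adjusted p = 0.026), as did Wfs1 and Otof.

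Other positive differences belonged to signalling genes. Pdyn, the precursor of dynorphin opioid peptides, averaged 540 ± 63.4 in WT-Veh and 819 ± 35.5 in HT-Veh (log2 difference 0.61, SE 0.10, adjusted p = 0.256). Htr2a, the excitatory serotonin 2A receptor, had 984, 1065, 981 and 1150 normalized reads in WT-Veh and 1519, 1392, 1359 and 1328 in HT-Veh (log2 difference 0.42, SE 0.08, adjusted p = 0.398). Pcdh10, an adhesion protein of the protocadherin family, averaged 5583 ± 450 and 7087 ± 264 (log2 difference 0.35, SE 0.07, adjusted p = 0.55). In each of these genes the lowest HT-Veh mouse exceeded the highest WT-Veh mouse. The remaining genes named on this side were Gvin1, an interferon-induced GTPase (0.91), Amz1, a metalloprotease (0.56), and Tnfrsf8, the receptor CD30 (0.90), with adjusted p from 0.381 to 0.398.

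The negative side held genes of diverse roles besides Rspo1. The uncharacterised gene 1110008P14Rik had 3345, 3509, 3303 and 3520 normalized reads in WT-Veh and 2514, 2617, 2736 and 2339 in HT-Veh (log2 difference -0.42, SE 0.07, adjusted p = 0.256). Its groups did not overlap, and it passed without both bulb-rich libraries (log2 difference -0.39, adjusted p = 0.0373). Dolpp1, an enzyme that recycles the dolichol carrier of protein glycosylation, averaged 462 ± 51.1 and 317 ± 7.44 (log2 difference -0.54, SE 0.10, adjusted p = 0.398). Cox14, an assembly factor of cytochrome c oxidase, averaged 1036 ± 83.3 and 809 ± 49.6 (log2 difference -0.35, SE 0.08, adjusted p = 0.783). The values of Nrep, a neuronal protein linked to regeneration, were 2673, 1961, 2055 and 1631 in WT-Veh and 1349, 1312, 1394 and 1558 in HT-Veh (log2 difference -0.55, SE 0.13, adjusted p = 0.803), and WT-Veh replicate 1 was the highest. With the bulb covariate Nrep passed (log2 difference -0.51, limma adjusted p = 0.0327). Tmem145, Ccdc184, Pip5kl1, Cthrc1 and Dexi completed the list, with log2 differences from -0.54 to -0.29 and adjusted p from 0.398 to 0.839.

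**Figure D3:**
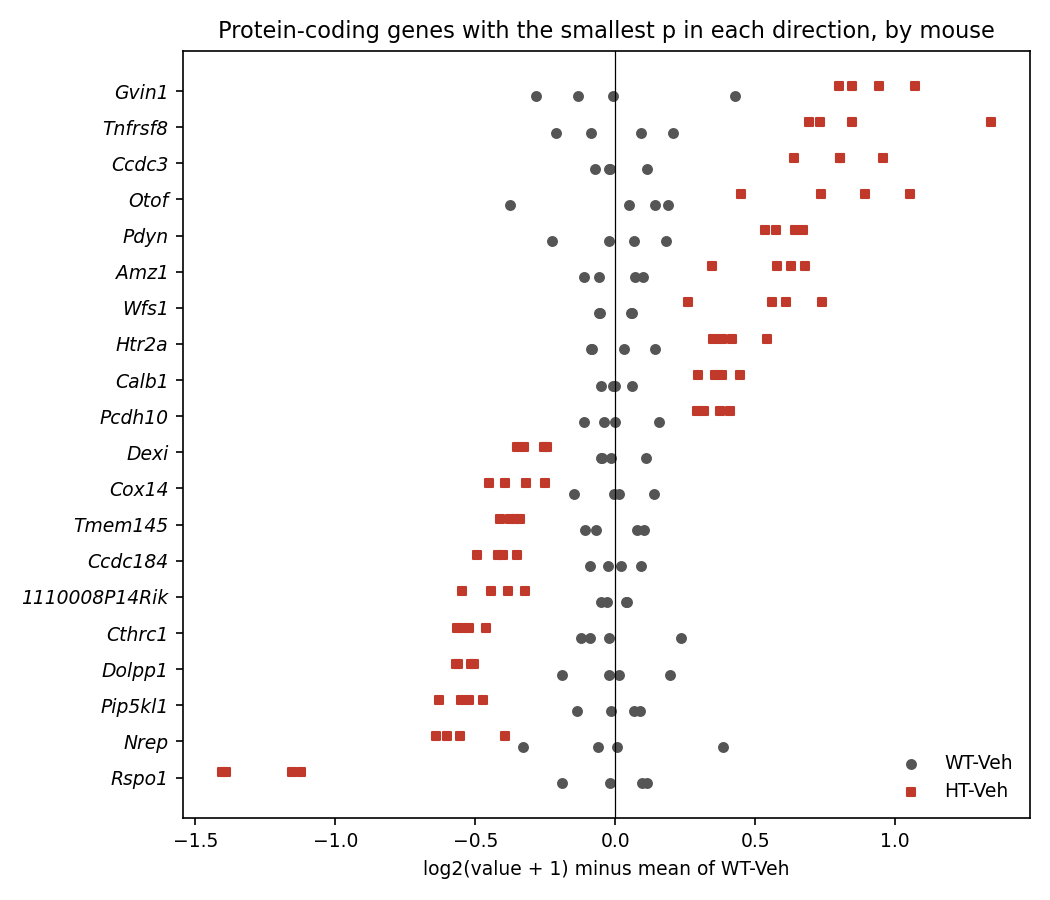
Log2(value + 1) minus the WT-Veh mean (x axis) in each WT-Veh (grey circles) and HT-Veh (red squares) mouse, for the 10 protein-coding genes with the smallest p in each direction among those with a mean of at least 100. The groups do not overlap in any of the 20 genes, which were chosen by p, and Rspo1 and Ccdc3 are the ones past the adjusted threshold.

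Rspo1 belongs to the Wnt pathway, in which secreted Wnt proteins bind Frizzled and LRP receptors and stabilise beta-catenin, and R-spondins keep these receptors on the cell surface. Of 14 Wnt and R-spondin genes tested, 1 was called, and the list had a median log2 difference of -0.10 against 0.01 over all genes. Rspo3 had 512, 322, 349 and 296 normalized reads in WT-Veh and 278, 280, 287 and 288 in HT-Veh (log2 difference -0.35, SE 0.16, adjusted p = 0.922). The highest value is that of a bulb-rich library, and without both the difference was -0.19. Rspo2 averaged 376 ± 98.0 and 446 ± 79.7, with groups that overlapped. The 10 Wnt ligands other than Wnt2b, which had 30.3 ± 8.25 and 41.7 ± 13.6, had log2 differences from -0.29 (Wnt5a) to 0.18 (Wnt7b), and 0 of these ligands passed the threshold or had unadjusted p under 0.05 by limma. Among 17 Wnt and R-spondin receptors, 0 had unadjusted p under 0.05 by limma, and 12 had positive differences. Of 9 secreted Wnt inhibitors, 1 had unadjusted p under 0.05: Sfrp1, with 389.9, 399.6, 406 and 369 normalized reads in WT-Veh and 487, 494, 469 and 511 in HT-Veh (log2 difference 0.33, SE 0.08, adjusted p = 0.811).

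The cortical layer lists held members of either sign. Of 15 upper-layer genes, 3 had unadjusted p under 0.05 with positive differences (Calb1, Wfs1 and Otof) and 2 with negative differences, against 2.63% and 2.26% of all genes. As the list was chosen with earlier results of these data known, these counts do not test an upper-layer change. The median was 0.10, with -0.07 when WT-Veh replicate 1 was left out and 0.04 without both bulb-rich libraries. The negative ones were Whrn, a scaffold protein (1078 ± 116 and 856 ± 48.5), and Scnn1a, a sodium channel subunit used like Rspo1 as a layer 4 marker (73.0 ± 9.35 and 46.4 ± 15.4, log2 difference -0.69, adjusted p = 0.922). Rorb, a transcription factor of layer 4, averaged 1665 ± 145 and 1726 ± 131 (log2 difference 0.05, SE 0.08), a difference smaller than its error. Cux2, a transcription factor of upper-layer neurons, had a log2 difference of 0.16 (SE 0.22), with its lowest value in WT-Veh replicate 1. Of 15 deep-layer genes, 2 had positive differences at unadjusted p under 0.05. Ntsr1, a neurotensin receptor of layer 6, had 121, 129, 113 and 164 normalized reads in WT-Veh and 266, 183, 152 and 212 in HT-Veh (log2 difference 0.61, SE 0.19, adjusted p = 0.899).

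Cholesterol synthesis genes differed in a single direction. Neurons and glia make their own cholesterol, and the enzymes of the pathway are induced together by the transcription factor SREBP2. All 18 genes tested had negative differences, where 51.8% of all genes had positive ones, with a median of -0.19 and a range from -0.40 to -0.03. By limma 0 of 18 passed the adjusted threshold, and 8 had unadjusted p under 0.05, all with negative differences. Of all genes, 4.88% had unadjusted p under 0.05, 2.26% with a negative difference. Mvd, an enzyme that makes isopentenyl pyrophosphate, had 472, 459, 413 and 419.8 normalized reads in WT-Veh and 326, 338, 293 and 381 in HT-Veh (log2 difference -0.40, SE 0.10, adjusted p = 0.839). Fdft1, squalene synthase, had 2281, 2342, 2275 and 2417 in WT-Veh and 1739, 2031, 2086 and 1976 in HT-Veh (log2 difference -0.25, SE 0.07, adjusted p = 0.872). For both, all HT-Veh mice lay below all WT-Veh mice, as they did for Idi1 (1774 ± 91.2 and 1450 ± 150), Hmgcs1 (7454 ± 591 and 6381 ± 372) and Sqle (1613 ± 114 and 1376 ± 111). Groups without overlap were thus found in 5 of 18 genes, against 3.84% of all genes. Srebf2, which encodes SREBP2, averaged 6036 ± 678 and 5536 ± 152 (log2 difference -0.12), and its groups overlapped.

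The mean level of the cholesterol list was 10.58 to 10.77 in WT-Veh and 10.38 to 10.53 in HT-Veh on the log2 scale, and of 32 lists examined it was 1 of 2 in which the groups did not overlap. Of all single genes tested, 3.84% had groups that did not overlap, so 2 of 32 lists is not a result in itself. The bulb-rich WT-Veh replicate 1 was the lowest of its group. Without both bulb-rich libraries the median was -0.21, and 15 of 18 genes had unadjusted p under 0.05, against 10.8% of all genes in that fit. Oligodendrocytes are a major site of cholesterol synthesis. Most of their markers had negative differences, described with the glial lists, and 3 of 16 had positive ones. The mean level of that list overlapped between groups, at 10.77 to 11.28 in WT-Veh and 10.87 to 11.14 in HT-Veh. A relation between these lists was not tested.

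Promoters of the 3 cholesterol genes with the smallest p among those with a RefSeq promoter entry (12 of 18 genes matched) are shown because SREBP2 acts at such promoters together with the CCAAT-binding factor NF-Y. The 200 bases before each start are printed (GRCm38.p6), with matches to CCAAT or its reverse complement and to the SREBP element TCACNCCAC on either strand in capitals. The windows are chr8:122443423-122443622 (minus strand, Mvd), chr13:8885406-8885605 (plus strand, Idi1) and chr13:119690151-119690350 (plus strand, Hmgcs1).

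Mvd: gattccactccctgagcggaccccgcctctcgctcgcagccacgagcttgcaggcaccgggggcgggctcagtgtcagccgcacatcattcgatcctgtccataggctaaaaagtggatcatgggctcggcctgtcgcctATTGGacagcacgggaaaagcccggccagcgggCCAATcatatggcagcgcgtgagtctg
Idi1: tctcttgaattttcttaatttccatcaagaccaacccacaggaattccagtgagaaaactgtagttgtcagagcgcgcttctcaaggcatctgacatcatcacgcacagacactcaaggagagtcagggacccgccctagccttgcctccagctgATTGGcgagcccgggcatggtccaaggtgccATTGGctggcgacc
Hmgcs1: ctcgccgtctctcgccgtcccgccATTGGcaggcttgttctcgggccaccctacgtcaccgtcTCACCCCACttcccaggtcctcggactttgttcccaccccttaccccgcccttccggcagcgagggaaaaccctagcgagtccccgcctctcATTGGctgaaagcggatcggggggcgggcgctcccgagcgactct

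Within 250 bases before and 50 after the start, CCAAT was found in 12 of the 12 cholesterol genes and in 41.1% of all 27025 genes with an entry. TCACNCCAC was found in 1 of the 12, Hmgcs1, and in 1.44% of all genes. The motifs do not overlap each other in the printed windows, and a match is a description of sequence, not evidence of binding.

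The excitatory synapse list had mostly positive differences. Of 50 receptor and scaffold genes, 39 had positive differences with a median of 0.12, and 4 had unadjusted p under 0.05, all positive, with 0 past the adjusted threshold by limma. Of all genes, 51.8% had positive differences, and 4.88% had unadjusted p under 0.05, 2.63% with a positive difference. Grin3a, an NMDA receptor subunit, had 807, 1064, 946 and 999 normalized reads in WT-Veh and 1428, 1277, 1363 and 1003 in HT-Veh (log2 difference 0.40, SE 0.12, adjusted p = 0.899). Grm5, the metabotropic glutamate receptor mGluR5, averaged 4596 ± 818 and 5584 ± 402 (log2 difference 0.30, SE 0.13, adjusted p = 0.922). Both bulb-rich libraries were the lowest of their groups for these genes, and the mean level of the list was 11.64 in WT-Veh replicate 1 against 11.88 to 12.02 in the other 7 mice. Without both libraries the median of the list was 0.03 and 33 of 50 differences were positive, as were 50.2% of all genes in that fit, while 11 had a positive and 1 a negative difference at unadjusted p under 0.05. With the bulb covariate the median was 0.09, 39 of 50 differences were positive, and 13 had unadjusted p under 0.05, all positive, against 10.2% of all genes. Grin2b, an NMDA receptor subunit, passed in that fit (log2 difference 0.38, adjusted p = 0.0441), and over 8 mice it had 7038, 14849, 14963 and 15546 normalized reads in WT-Veh and 19566, 20116, 17525 and 12769 in HT-Veh.

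Synaptic release genes were mixed, with 11 of 23 differences positive. Cplx1, a complexin that clamps vesicle fusion, had 20182, 17978, 19687 and 18184 normalized reads in WT-Veh and 16310, 15862, 17171 and 14377 in HT-Veh (log2 difference -0.26, SE 0.08, adjusted p = 0.884). Syn2, a vesicle-associated synapsin, had the opposite sign, with 11608 ± 317 and 13385 ± 911 (log2 difference 0.20, SE 0.07, adjusted p = 0.922). The groups did not overlap for either gene. Of 14 genes of GABA-A receptors and gephyrin, 9 had positive differences (median 0.11), and 0 had unadjusted p under 0.05 by limma. The bulb-rich libraries stood apart from their groups for this list. Unadjusted p was under 0.05 with a positive difference for 5 of 14 genes without both (median 0.07) and for 7 of 14 with the bulb covariate. Of all genes, 10.8% and 10.2% had unadjusted p under 0.05 in these fits.

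Among 18 genes of GABA synthesis and interneurons, 13 had negative differences, and 2 had unadjusted p under 0.05, against 4.88% of all genes. Pvalb, the calcium buffer of fast-spiking interneurons, had 819, 1126, 1132 and 1117 normalized reads in WT-Veh and 758, 775, 899.5 and 571 in HT-Veh (log2 difference -0.49, SE 0.15, adjusted p = 0.899). The bulb-rich library was the lowest of WT-Veh, and without both the log2 difference was -0.48 (adjusted p = 0.0634). With the bulb covariate Pvalb passed (log2 difference -0.53, limma adjusted p = 0.0357). In that fit 7 of 18 genes of the list had a negative and 1 a positive difference at unadjusted p under 0.05. Of all genes, 10.2% had unadjusted p under 0.05 there. Npy, a peptide of another interneuron class, averaged 2477 ± 206 and 1982 ± 223 (log2 difference -0.32, SE 0.09, adjusted p = 0.872). Sst, somatostatin, averaged 3920 ± 111 and 3488 ± 390 (log2 difference -0.17, SE 0.08, adjusted p = 0.922), with HT-Veh replicate 3 inside the WT-Veh range.

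Of 14 serotonin receptor and turnover genes, 3 had unadjusted p under 0.05 (against 4.88% of all genes), all positive, and 0 passed the adjusted threshold by limma. Beside Htr2a they were Maob, a monoamine oxidase (693 ± 37.4 and 798 ± 15.6, log2 difference 0.20, SE 0.07), and Htr1a, the inhibitory serotonin 1A receptor (406 ± 39.5 and 487 ± 39.7, log2 difference 0.26, SE 0.10). Their adjusted p was 0.922. In the fit of 3 against 3 mice these differences were 0.42 (Htr2a), 0.20 (Maob) and 0.27 (Htr1a).

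Class IIa HDACs and the MEF2 factors they repress were examined because the study addressed this pathway. Of 8 genes tested, with Arc counted among them, 1 had a positive and 1 a negative difference at unadjusted p under 0.05. Hdac4 had 1316, 2151, 2204 and 2046 normalized reads in WT-Veh and 1854, 2128, 2002 and 1728 in HT-Veh (log2 difference 0.02, SE 0.15, adjusted p = 0.986), and WT-Veh replicate 1 was the lowest. The other WT-Veh values, from 2046 to 2204, lay above every HT-Veh value except 2128. The part of that bulb-rich library in the near-zero Hdac4 difference was not tested. The decrease of HDAC4 in the study was in protein, and it reported no significant change of the transcript. Mef2a had 4201, 4386, 4621 and 4638 normalized reads in WT-Veh and 5067, 5085, 4733 and 5063 in HT-Veh (log2 difference 0.16, SE 0.06, adjusted p = 0.922), and its groups did not overlap. Hdac5 averaged 4616 ± 244 and 4048 ± 446 (log2 difference -0.19, SE 0.09, adjusted p = 0.922). The median of these 8 genes was 0.02 over 8 mice, -0.06 without WT-Veh replicate 1 and -0.04 without both bulb-rich libraries. Of 19 activity-regulated genes, 16 had negative differences with a median of -0.18, and 0 had unadjusted p under 0.05 by limma. Over all genes, 51.8% had positive differences. Without both bulb-rich libraries the median was -0.28, and 7 of 19 had unadjusted p under 0.05, all negative, against 10.8% of all genes in that fit. With the bulb covariate over 8 mice the median was -0.18. In that fit 3 of 19 had unadjusted p under 0.05, all negative, against 10.2% of all genes. Fos, an immediate early transcription factor, ran from 364 to 590.1 in WT-Veh and from 168 to 479.5 in HT-Veh, and HT-Veh replicate 1 was the lowest.

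Mitochondrial and ribosomal protein genes had small negative differences, and these were smaller without the bulb-rich libraries. All 36 nuclear-encoded genes of respiratory complex I had negative differences, with a median of -0.17, and 2 had unadjusted p under 0.05. Over all genes, 51.8% had positive differences and 4.88% had unadjusted p under 0.05. Ndufa1, an accessory subunit, averaged 786 ± 89.0 and 621 ± 48.3 (log2 difference -0.34, SE 0.10, adjusted p = 0.899). The mean level of the complex I list was 10.78 in WT-Veh replicate 1 and 10.24 to 10.40 in the other 7 mice, and without both libraries the median was -0.08 with 3 of 36 differences positive. With the bulb covariate over 8 mice the complex I median was -0.14, and 0 of 36 differences were positive. In that fit 15 of 36 had unadjusted p under 0.05, all negative, against 10.2% of all genes. For complexes II to V, 43 of 45 differences were negative (median -0.13, and -0.05 without both). With the bulb covariate their median was -0.11, and 15 of 45 had unadjusted p under 0.05, all negative. For 78 mitochondrial ribosomal proteins the median was -0.10 (-0.04 without both). For 80 cytoplasmic ribosomal proteins the median was -0.09 and became 0.00 without both, with 0 genes at unadjusted p under 0.05 in the fit of 8 mice by limma.

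**Figure D4:**
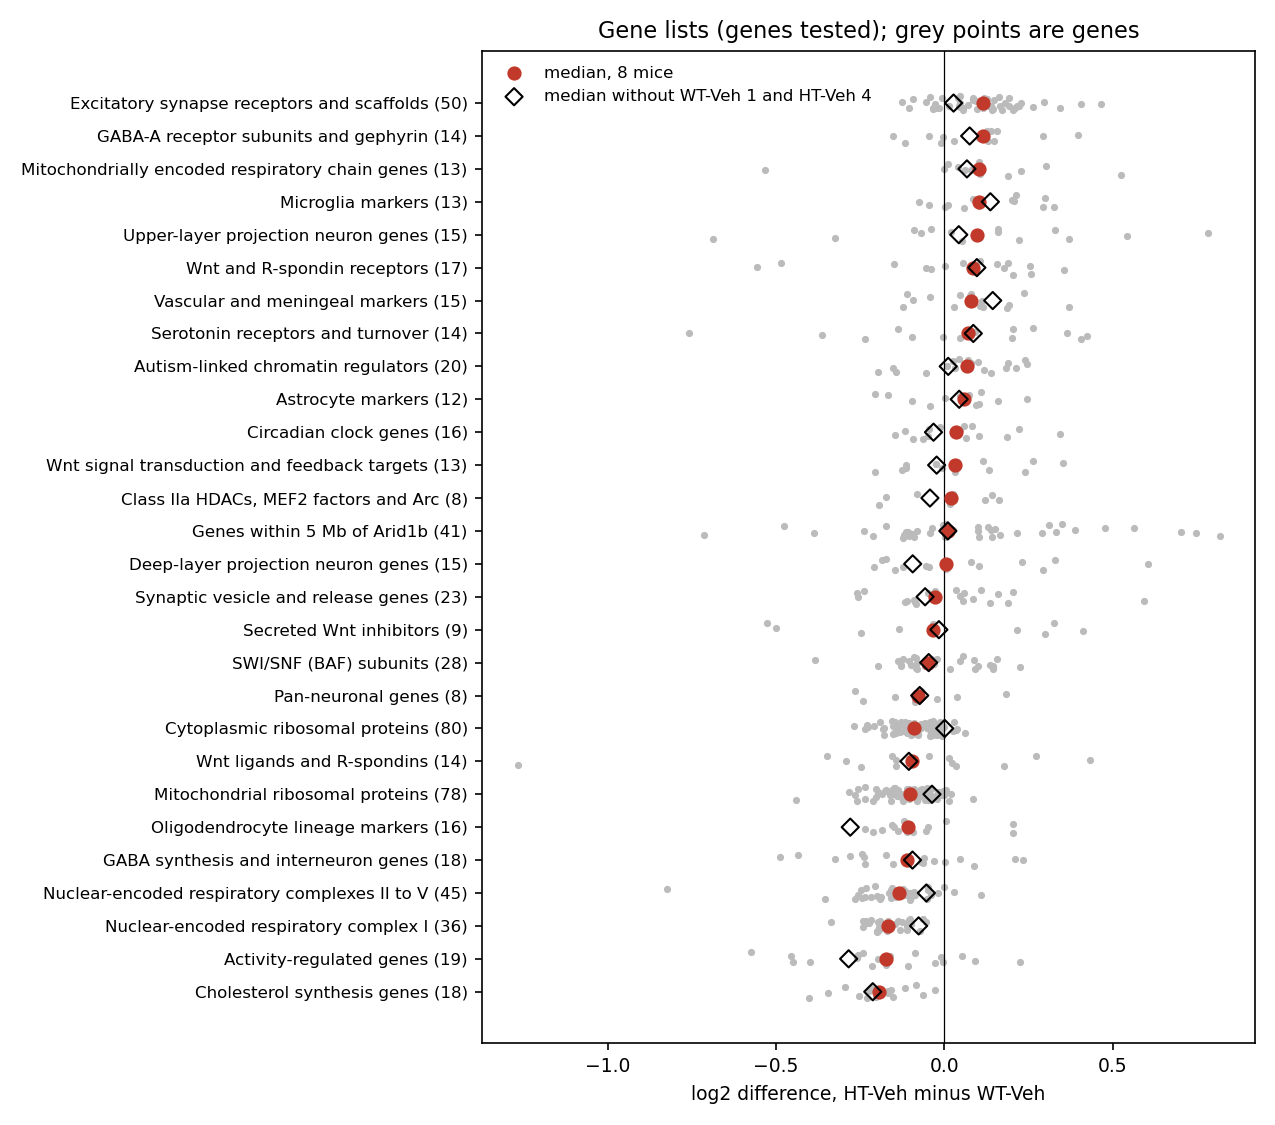
Log2 differences HT-Veh minus WT-Veh (x axis) of the tested genes (grey points) of each list (y axis, number of genes in brackets), with the median over 8 mice (red) and without WT-Veh replicate 1 and HT-Veh replicate 4 (open diamonds). Cholesterol genes have a median of -0.19 over 8 mice and -0.21 without both libraries, whereas the medians of ribosomal proteins and excitatory synapse genes move toward 0. Bulb, neuroblast, striatal and choroid plexus lists are not drawn.

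Glial lists differed in direction. Of 16 oligodendrocyte lineage genes, 13 had negative differences with a median of -0.11, and none of these had unadjusted p under 0.05 by limma, while Cspg4, a marker of their precursors, averaged 557 ± 16.2 and 642 ± 44.9 (log2 difference 0.20, SE 0.08, adjusted p = 0.922). Mog, a myelin protein, had 641, 811, 908 and 856 normalized reads in WT-Veh and 671, 677, 616 and 800.2 in HT-Veh (log2 difference -0.21, SE 0.12). Without both bulb-rich libraries the median of the list was -0.28, and 11 of 16 genes had unadjusted p under 0.05 with negative differences, Mog (log2 difference -0.39, adjusted p = 0.104) among them. Of all genes, 10.8% had unadjusted p under 0.05 in that fit. With the bulb covariate the median of the list was -0.12. In the covariate fit 0 of 16 genes had a negative and 2 a positive difference at unadjusted p under 0.05, against 10.2% of all genes. The number of negative differences at this cutoff thus depended on how the bulb-rich libraries were handled.

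Microglial markers had positive differences in 11 of 13 genes, with a median of 0.10, and the mean level of the list ran from 9.78 to 9.87 in WT-Veh and from 9.90 to 10.10 in HT-Veh, without overlap. This was the other of the 2 such lists among 32, and 3.84% of all single genes had groups without overlap. Fcrls, P2ry12 and Itgam had unadjusted p under 0.05 (3 of 13, against 4.88% of all genes), and 0 passed the adjusted threshold by limma. P2ry12, the purinergic receptor of resting microglia, had 1050, 1587, 1525 and 1355 normalized reads in WT-Veh and 1570, 1702, 1920 and 1518 in HT-Veh. C1qa and Tmem119, which also mark microglia, had differences near or below 0 (-0.05 and -0.07). Of 15 vascular and meningeal markers, 11 differences were positive, and 15 of 15 without both bulb-rich libraries. Ttr, the choroid plexus thyroxine carrier, had 17.1, 48.7, 74.8 and 243 normalized reads in WT-Veh and 5.38, 10.4, 11.1 and 3.08 in HT-Veh (log2 difference -3.04, SE 0.70, adjusted p = 0.783). With the bulb covariate Ttr passed (log2 difference -3.24, limma adjusted p = 0.0327). Its spread within WT-Veh was wide. Kl, another choroid plexus gene, averaged 49.0 ± 12.3 and 68.3 ± 10.8, in the other direction, and Folr1 was below the filter on low values.

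**Figure D5:**
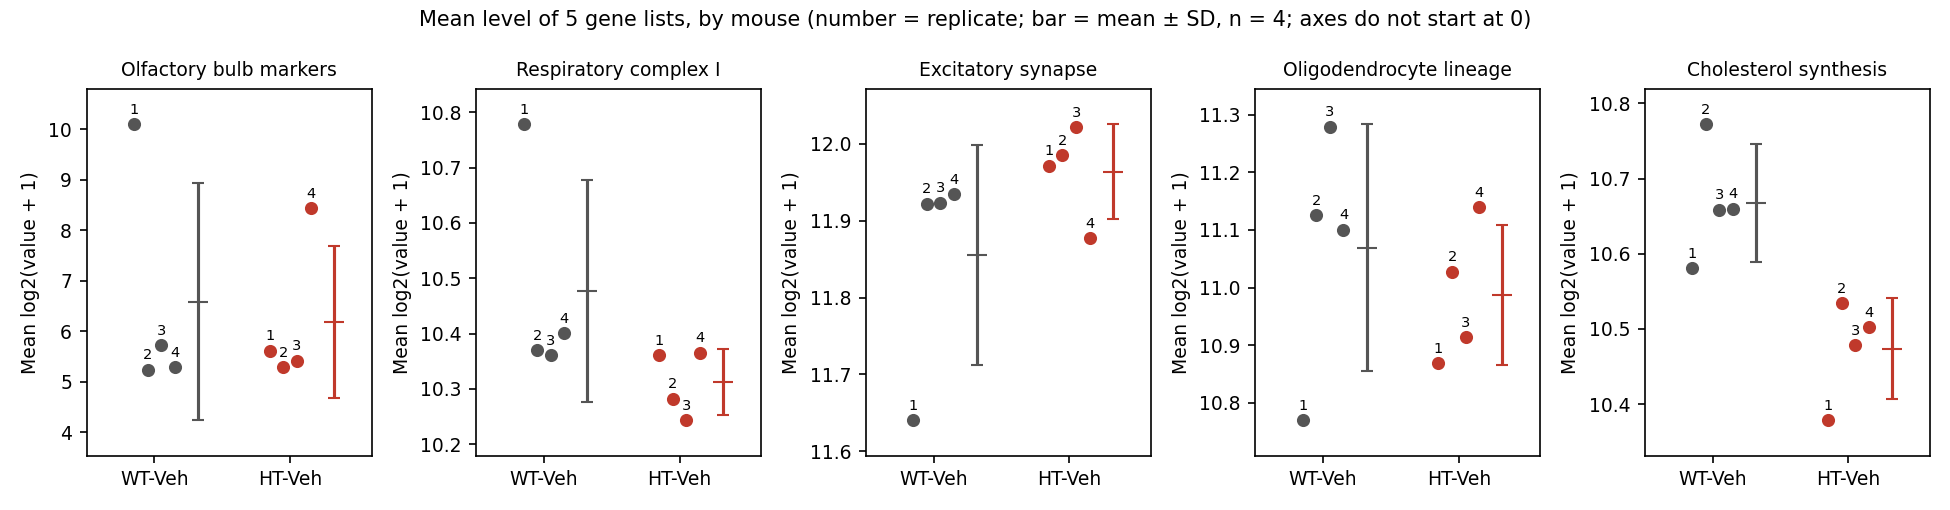
Mean log2(value + 1) of 5 gene lists (y axes, which do not start at 0) in each WT-Veh (grey) and HT-Veh (red) mouse, with replicate numbers and the mean ± SD (n = 4). WT-Veh replicate 1 stands apart for bulb, complex I and synapse genes, and the cholesterol list shows WT-Veh at 10.58 to 10.77 and HT-Veh at 10.38 to 10.53.

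Genes near Arid1b were examined because alleles linked to the targeted copy travel with it. The allele was made in C57BL/6N and crossed to C57BL/6N females, and whether linked sequence differs between the groups was not tested. Of 41 genes tested within 5 Mb of the start of Arid1b, Arid1b not included, 0 passed in the fit of 8 mice by limma, and 6 had positive and 1 negative differences at unadjusted p under 0.05. Over all genes these shares were 2.63% and 2.26%. Of the positive genes, 5 are copies of Tmem181 and Dynlt1 that lie 1.26 to 1.62 Mb from the Arid1b start. Other copies there had no such difference, namely Dynlt1a at 1.31 Mb (log2 difference 0.01, SE 0.18) and Dynlt1f at 1.65 Mb (log2 difference -0.21, SE 0.18). Tmem181b-ps, an annotated pseudogene, had 2520, 5385, 4800 and 4963 normalized reads in WT-Veh and 6488, 7438, 6702 and 7052 in HT-Veh (log2 difference 0.70, SE 0.20, adjusted p = 0.872). Its groups did not overlap, WT-Veh replicate 1 was the lowest, and without both bulb-rich libraries the log2 difference was 0.44 (adjusted p = 0.044). Tmem181a averaged 3073 ± 546 and 3766 ± 127, and Dynlt1b, a dynein light chain gene, averaged 301 ± 22.5 and 384 ± 41.2. As copies of 1 family can share reads, the split of reads among them is uncertain.

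The remaining lists held few genes at unadjusted p under 0.05, and 0 of their members passed the adjusted threshold by limma. Of 13 genes of Wnt signal transduction, 7 had positive differences (median 0.03). Of 16 clock genes, 1 had unadjusted p under 0.05, Ciart, a repressor within the clock (726 ± 54.5 and 846 ± 55.4), and the median was 0.04. Of 20 autism-linked chromatin regulators, 16 had positive differences with a median of 0.07, which became 0.01 without both bulb-rich libraries. Of 8 general neuronal markers, 2 had positive differences, and Tubb3, a neuronal tubulin, averaged 8154 ± 1033 and 6757 ± 378 (log2 difference -0.26), with the highest value, 9696, in WT-Veh replicate 1. Of 12 astrocyte markers, 8 had positive differences, and Aldh1l1 averaged 1903 ± 171 and 1648 ± 139. Of 13 respiratory chain genes encoded in mitochondria, 11 had positive differences (median 0.10). Striatal markers were highest in HT-Veh replicate 4, with a mean level of 10.16 against 7.59 to 9.39 in the other 7 mice, and their median difference was 0.29, which became -0.39 without both bulb-rich libraries. Bulb markers and neuroblast markers had medians of -0.46 and -0.44, and -0.02 and -0.20 without both.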

How the data were processed

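RNA from the prefrontal cortex of 16 mice was sequenced as stranded poly(A) libraries, and the 8 vehicle samples (1 mouse each) were used, with groups taken from the sample titles. The authors quantified reads with Salmon 1.1.0 on GRCm38, summed them per gene and normalized them with DESeq2 1.30.1. The deposited table thus holds a normalized signal per gene, in units of estimated reads, for 18424 genes (18411 have a matching symbol). Library totals were not used here, so depth is unknown, no counting interval is given, and the number of mice limits precision. At most 28.2% of low values fell on whole reads, so no count test was run.

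Values were analysed as log2(value + 1) in limma 3.58.1 (R 4.3.3) with a mean-variance trend and no covariate, for the 16832 genes that reached 10 normalized reads in 4 or more of the 8 samples (3 or more when mice were left out). P-values were adjusted by the Benjamini-Hochberg method over all genes tested, with a threshold of 0.05. Fold changes on this scale understate changes of low genes. Arid1b was also tested by a two-sided exact permutation test. The code was tested on simulated data. Tables and plots were made with pandas 2.3.3, numpy 2.4.6 and matplotlib 3.10.9.

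Named genes were Arid1b, every gene past the threshold, the 10 protein-coding genes in each direction with the smallest p and a mean of at least 100, and the 2 members of each list with the smallest p. Other members were chosen after their values were seen, for their known role. The gene lists, the comparison and the bulb-rich pair of libraries were chosen with earlier results of these data known. A list's mean level is the mean of log2(value + 1) over its members. Alternatives changed the pseudocount, filter, scaling, sample weights, bulb covariate, replicate block and the mice included. The table also has columns of 8 fluoxetine samples, not analysed here.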

Additional observations from a re-analysis of the deposited data

Results flagged for a closer look

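Of 226 groups of 4 mice examined (named genes and list levels), 31 held a mouse whose distance from its nearest neighbour passed Dixon's 95% limit, where chance gives about 1 in 20. WT-Veh replicate 1 was the mouse in 20 of them and HT-Veh replicate 4 in 7, the pair with high olfactory bulb markers. The relation of these values to the bulb markers was not tested gene by gene.

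In WT-Veh replicate 1 the values that stood apart were low for Pvalb (819 normalized reads) and Rgs5 (2646). They were high for Bcl11a (3527), Ier2 (250.4), Tubb3 (9696), Fcrls (633), Nmb (266), Tshz1 (3011) and Mrpl14 (329). List levels in the same mouse, as mean log2 values, were 8.36 for Wnt and R-spondin receptors, 11.64 for excitatory synapse genes, 13.25 for synaptic release genes, 11.42 for GABA-A receptors and 11.12 for autism-linked chromatin regulators. They were 10.10 for bulb markers, 8.54 for neuroblast markers, 11.53 for cytoplasmic ribosomal proteins, 9.36 for mitochondrial ribosomal proteins, 10.78 for complex I and 11.10 for complexes II to V.

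In HT-Veh replicate 4 the values were 94.5 for Nmb, 508 for Rarb, 927 for Ndufa3 and 3131 for Dvl1, with list levels of 8.44 for bulb markers, 7.79 for neuroblast markers and 11.57 for GABA-A receptors. In the other mice, Mef2a (4733) and the mitochondrially encoded genes (mean log2 level 16.38) stood apart in HT-Veh replicate 3, and Hdac5 (4255) and Ndufa1 (653) in WT-Veh replicate 2.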

How the results depend on the processing

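The number of genes past the threshold depended on how the bulb-rich libraries were handled: 3 in the fit of 8 mice became 18 with sample weights, 20 with the bulb level as a covariate and 12 without both libraries. With 1 mouse left out it ran from 0 to 2, and the single call without WT-Veh replicate 2 was Gm8203, which was not called with 8 mice. With the replicate block it was 0 by limma (741 at unadjusted p under 0.05). The numbers do not pair the mice: correlations of the deviations of same-numbered mice were -0.04, 0.23, 0.07 and -0.20. Other filters, pseudocounts and scalings gave 2 or 3 calls. Arid1b kept its sign and stayed uncalled in all 18 alternatives, from -0.51 to -0.29 with 1 mouse left out. Among named genes the sign turned for Tshz1 (0.047 with weights and 0.041 without both bulb-rich libraries, against -0.23 with 8 mice, and -0.42 to 0.18 with 1 mouse left out), Nmb (-1.18 to 0.26 with 1 mouse left out, positive without WT-Veh replicate 1, against -0.61), Rarb (-0.026 without both, against 0.32) and Ppp1r1b (-0.092 without both, against 0.34). The cause was not tested. Of 32 list medians, 9 changed sign without WT-Veh replicate 1 and 6 without both, and the cholesterol median kept its sign in each alternative. With the filter at a mean of 100, Fam220a and the choroid plexus list gave no value. Unknown depth limits statements on low genes such as Fam220a and Ttr.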
